A study of Mus musculus with 4 samples.

Results

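Matricellular and matrix repair genes of the mouse left ventricle were followed through age and ischemia-reperfusion (I/R). The 10 genes were taken by symbol from the 32285 genes of the count tables, and all 10 were present: Spp1, Tnc, Thbs1, Fn1, Postn, Sparc, Sparcl1, Cilp, Prg4 and Lox. Their unique molecular identifiers (UMIs, each standing for a captured RNA molecule) were summed over every barcode of a library and scaled to the total UMIs of the library (CPM). The study made 4 droplet libraries of left ventricle from male wild-type C57BL/6J mice, to ask how the heart responds to I/R at a young and at an old age. Young sham and young I/R mice were 3 to 5 months old, and aged sham and aged I/R mice 24 to 26 months old. Both I/R groups had 45 min of ischemia followed by 24 h of reperfusion. The titles of both sham samples name sham conditions, and the paper describes sham operations. Other sample labels call both sham groups healthy and unaltered. No transgene or drug was used in these groups. Each condition is 1 library, how many mice went into each is not stated, and the labels name nuclear RNA where the paper describes single cells. With 1 library per condition there is no replicate and no test. Every interval below is a 95% interval for counting error alone, exact Poisson for a level and exact conditional for a ratio of levels.

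Matricellular proteins are secreted into the extracellular matrix, where they bind cell surface receptors, growth factors and collagens and signal to cells rather than carry load. Most are low in the resting adult heart and are laid down after injury, together with the provisional fibronectin matrix on which fibroblasts and leukocytes move. Lysyl oxidase and the collagen-binding members act later, when the new matrix is assembled and made stiff. Cardiac fibroblasts are the main source of many of these proteins, while macrophages are a known source of osteopontin and platelets of thrombospondin 1.

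The libraries held 25836175 to 66767829 UMIs over 91124 to 102883 barcodes, with a median of only 244 UMIs per barcode in young sham and 675 in aged I/R. Between 7.44% and 7.92% of the barcodes of a library had a sequence that also occurred in another library, and leaving these out moved no ratio of a named gene beyond its interval. Heart muscle markers were high in every library, with 10 cardiomyocyte genes summing to 50676 to 60242 CPM. The single transcript Gm42418 took 11.5% of UMIs in young sham and 19.4% in young I/R. The median log2 ratio of all genes was −0.51 in young I/R over young sham, 0.09 in aged I/R over aged sham, −0.14 in aged over young sham and 0.47 in aged over young I/R. An alternative scaling, by the median ratio of single genes in place of total UMIs, therefore added 0.43, −0.09, 0.14 and −0.38 to every log2 ratio of these 4 comparisons, and values under this gene-wise ratio scaling are given where they matter. Together the 10 genes made up 0.0420%, 0.0528%, 0.0575% and 0.0704% of all UMIs in the libraries, in the order young sham, young I/R, then aged sham, aged I/R. This order holds below wherever 4 values stand in a row. Less RNA per cell and fewer cells of a type cannot be told apart in such sums.

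In young ventricle 5 of the 10 genes were more than 2-fold higher after I/R (Spp1, Tnc, Prg4, Thbs1 and Lox) and none was 2-fold lower. Of all 15465 genes with at least 20 UMIs in this comparison, 3.26% were 2-fold higher and 27.0% were 2-fold lower. In aged ventricle 4 of 10 were 2-fold higher after I/R (Prg4, Spp1, Tnc and Fn1), against 5.65% of 16761 genes, and none was 2-fold lower, against 3.02%. Between the sham libraries 6 of 10 were 2-fold higher in the aged one (Spp1, Tnc, Thbs1, Postn, Lox and Cilp), against 3.48% of 15875 genes, and none was lower, against 7.21%. Between the I/R libraries only Sparcl1 and Cilp were 2-fold higher in the aged one, against 21.3% of 16491 genes, and none was lower, against 1.58%. Neither Sparcl1 nor Cilp passed 2-fold under gene-wise ratio scaling. The spread over the 4 libraries ranged from 45.2-fold for Spp1 to 1.12-fold for Sparc. It was 27.8-fold for Tnc, 13.3-fold for Prg4, 7.30-fold for Thbs1 and 5.42-fold for Lox, and 2.11- to 3.53-fold for Sparcl1, Fn1, Postn and Cilp.

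**Figure D1:**
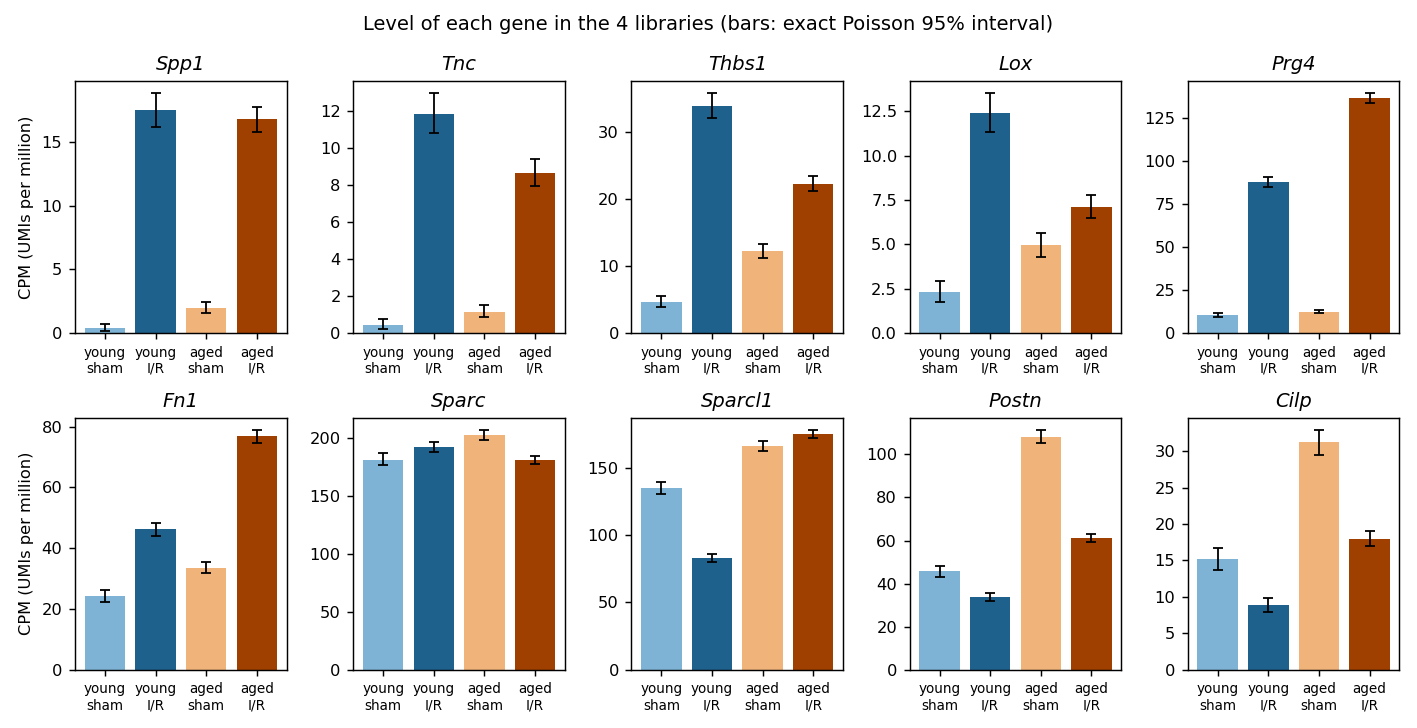
Level of each of the 10 genes in the sham and I/R libraries of young and aged ventricle, in CPM on a linear axis of its own for each gene, with bars for 1 library each and error bars for the exact Poisson 95% interval. Spp1, Tnc, Thbs1, Lox, Prg4 and Fn1 stand higher after I/R at both ages, Sparc is nearly level at 181 to 203 CPM, and Postn and Cilp stand highest in aged sham, at 108 and 31.2 CPM.

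Spp1 encodes osteopontin, a secreted phosphoprotein that binds integrins and CD44 and attracts leukocytes. It lay at 0.387 CPM in young sham (10 UMIs), 17.5 CPM in young I/R (694 UMIs), 1.93 CPM in aged sham (80 UMIs) and 16.8 CPM in aged I/R (1120 UMIs). Both I/R libraries were thus far above both sham libraries, and their own levels differed by a log2 ratio of only −0.06 (interval −0.20 to 0.08). In the young pair I/R over sham gave a log2 ratio of 5.50 (4.61 to 6.56), and in the aged pair 3.12 (2.79 to 3.46). The sham levels differed 5.00-fold, a log2 ratio of 2.32 (1.37 to 3.44) that rests on 10 UMIs in young sham. The smaller aged ratio therefore came from a higher sham level and not from a lower level after I/R, although gene-wise ratio scaling put the aged I/R level 0.44 below the young one on the log2 scale.

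Tnc encodes tenascin C, a large glycoprotein that loosens cell adhesion and appears at the borders of healing tissue. Its level was 0.426 CPM in young sham (11 UMIs), 11.8 CPM in young I/R (470 UMIs), 1.16 CPM in aged sham (48 UMIs) and 8.66 CPM in aged I/R (578 UMIs). Here too neither I/R interval came near a sham interval. On the log2 scale I/R exceeded sham by 4.80 (3.95 to 5.81) in young and by 2.90 (2.47 to 3.36) in aged ventricle. Unlike Spp1 on the scale of total UMIs, Tnc was also lower in aged than in young I/R, by a log2 ratio of −0.45 (−0.63 to −0.27). With gene-wise ratio scaling both were lower, Tnc at −0.84 and Spp1 at −0.44.

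Thbs1 encodes thrombospondin 1, which is stored in platelets, binds CD36 and CD47 and can activate latent TGFβ. It was counted at 4.64 CPM in young sham, 33.9 CPM in young I/R, 12.2 CPM in aged sham and 22.3 CPM in aged I/R. Aged ventricle thus started higher and ended lower than young ventricle. The I/R level was 7.30-fold the sham level in young (6.05 to 8.87) and 1.82-fold in aged ventricle (1.65 to 2.02). Aged sham was 2.63-fold above young sham, and aged I/R stood at a log2 ratio of −0.61 (−0.71 to −0.50) to young I/R. Under gene-wise ratio scaling this last value was −0.99.

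Lox encodes lysyl oxidase, the enzyme that starts the cross-linking of collagen and elastin. Its 4 levels were 2.28 CPM in young sham, 12.4 CPM in young I/R, 4.93 CPM in aged sham and 7.10 CPM in aged I/R, and their intervals did not overlap. The pattern was that of Thbs1: the I/R response on the log2 scale reached 2.44 (2.05 to 2.85) in young but 0.53 (0.29 to 0.77) in aged ventricle. Aged over young sham was 1.11 (0.69 to 1.55), and aged over young I/R was −0.80 (−0.99 to −0.62). With gene-wise ratio scaling the latter reached −1.18, which made Lox the only one of the 10 genes to pass 2-fold in the downward direction in any of these comparisons.

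For Thbs1, Tnc, Spp1 and Lox the I/R response, meaning I/R over sham on the log2 scale, was thus smaller in aged ventricle. The aged minus young difference was −2.00 for Thbs1 (Wald interval −2.31 to −1.70), −1.90 for Tnc (−2.86 to −0.94), −2.38 for Spp1 (−3.34 to −1.42) and −1.91 for Lox (−2.37 to −1.46). Gene-wise ratio scaling shifts each of these by the same amount and gave −2.53, −2.43, −2.91 and −2.44. Across the 10 genes 6 differences had intervals below 0 and 3 above 0, and 6 and 1 kept that sign with gene-wise ratio scaling. The share of all genes with such intervals is not given, so these counts stand without a background. All these differences are between 4 single libraries, so mouse-to-mouse variation cannot be told apart from age and injury.

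**Figure D2:**
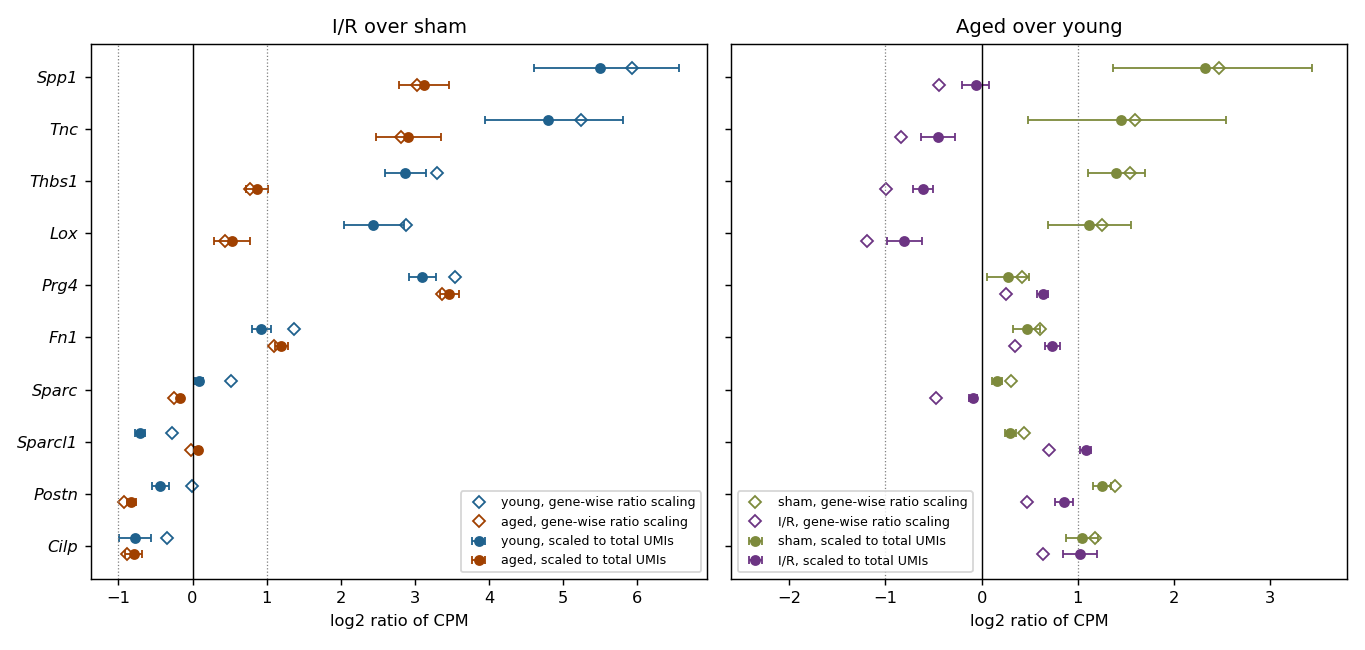
Log2 ratio of CPM for the 10 genes, with I/R over sham in young and aged ventricle on the left and aged over young in sham and I/R ventricle on the right. Filled circles are scaled to total UMIs with exact conditional 95% intervals, open diamonds use gene-wise ratio scaling, and dotted lines mark 2-fold; the young I/R ratios of Spp1, Tnc, Thbs1 and Lox lie to the right of the aged ones, while those of Prg4 and Fn1 lie close together.

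Neutrophil markers were also higher after I/R at both ages, as were these 4 genes, Prg4 and Fn1. The 8 neutrophil markers summed to 14.8 CPM in young sham, 111 CPM in young I/R, 25.2 CPM in aged sham and 107 CPM in aged I/R, and 8 of 8 were higher after I/R at each age. I/R over sham gave a log2 ratio of 2.91 for this sum in young and 2.08 in aged ventricle. With gene-wise ratio scaling these were 3.34 and 1.99, so the neutrophil sum too had the smaller ratio in aged ventricle. The young values beside it were 5.50 for Spp1, 4.80 for Tnc, 2.87 for Thbs1 and 2.44 for Lox. The aged ones were 3.12 for Spp1, 2.90 for Tnc, 0.87 for Thbs1 and 0.53 for Lox. The 8 platelet markers summed to 17.7 to 32.3 CPM, and 3 of 8 were higher after I/R in young and 7 of 8 in aged ventricle. Beside these counts, the median of all genes was −0.51 in young and 0.09 in aged ventricle. The platelet sum gave log2 ratios of 0.24 in young and 0.39 in aged ventricle. With gene-wise ratio scaling these were 0.67 and 0.30, so the order of the ages depends on the scaling. Among 14 macrophage markers 4 were higher after I/R in young ventricle, where the sum went from 381 to 268 CPM, and 9 in aged ventricle, where it went from 462 to 514 CPM. The macrophage sums gave log2 ratios of −0.50 in young and 0.15 in aged ventricle, but −0.07 and 0.06 with gene-wise ratio scaling. No marker of these lists was at 0 in any library, and the part of these cells in the levels of Spp1, Tnc, Thbs1 and Lox was not tested. The genes whose levels over the 4 libraries were most like Spp1, by the root mean square difference of centred log2 CPM among 11979 genes, were Tnc (0.41), the chemokine gene Cxcl5 (0.44) and the decoy receptor gene Il1r2 (0.51), which is among the neutrophil markers. Cd300lf (0.31) and Cxcl2 (0.40) came closest to Tnc, followed by Spp1. Thbs1 was closest to Ccn2 (0.12), Il18rap (0.13) and Adam8 (0.15). Each likeness rests on 4 points of unequal depth and is a description only.

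Prg4 encodes lubricin, a mucin-like glycoprotein best known from joint surfaces. Its level after I/R was 8.58-fold the sham level in young ventricle and 11.0-fold in aged ventricle. Unlike the 4 genes above it was nearly equal in the sham libraries (log2 ratio 0.28, interval 0.06 to 0.50) and higher in aged than in young I/R (0.64, 0.58 to 0.69). The latter stood above only 60.5% of all genes, whose median was 0.47, and was 0.25 with gene-wise ratio scaling. The aged minus young difference of the I/R response was 0.36 (0.14 to 0.58), but −0.17 (−0.39 to 0.06) with gene-wise ratio scaling, so its sign depends on the scaling. Saa3, an acute phase gene, had the pattern most like it (0.20), before Cxcl2 (0.38) and Clec4d (0.46). The gene lies at chr1:150449412-150466165 on the minus strand of GRCm38 and overlaps Tpr, a nuclear pore gene on the opposite strand. Tpr was at 280 CPM in young sham, 178 CPM in young I/R, 170 CPM in aged sham and 389 CPM in aged I/R, an order unlike that of Prg4. Whether strand was used in counting is not given in the sources used here.

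Fn1 encodes fibronectin, the core of the provisional matrix and a ligand of α5β1 integrin. It measured 24.3 CPM in young sham, 46.2 CPM in young I/R, 33.6 CPM in aged sham and 76.8 CPM in aged I/R. I/R was above sham at both ages, by 1.90-fold (1.74 to 2.09) in young and 2.29-fold (2.16 to 2.43) in aged ventricle. The young value just missed 2-fold, and at a log2 ratio of 0.93 it still stood above 96.5% of all genes. With gene-wise ratio scaling it was 1.36 and passed. The aged minus young difference of 0.27 (0.11 to 0.42) became −0.26 under that scaling, so no direction can be given for it.

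Sparc, which encodes a collagen-binding protein also called osteonectin, and its relative Sparcl1, or hevin, carried 75.5% of the UMIs of the 10 genes in young sham and 50.6% in aged I/R. Sparc was counted at 182 CPM in young sham, 193 CPM in young I/R, 203 CPM in aged sham and 181 CPM in aged I/R. No pair of libraries differed by more than 1.12-fold. Its I/R ratio on the log2 scale was 0.08 (0.03 to 0.14) in young and −0.16 (−0.20 to −0.12) in aged ventricle, and 0.52 and −0.26 with gene-wise ratio scaling. For Sparcl1 the levels were 135, 82.8, 166 and 175 CPM, so that young I/R alone was low. In young ventricle I/R over sham came to −0.71 on the log2 scale (−0.77 to −0.64), below 0 but above 40.1% of all genes in a comparison whose median gene stood at −0.51. In aged ventricle it was 0.08 (0.03 to 0.12), and −0.02 with gene-wise ratio scaling.

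Postn encodes periostin, which supports collagen fibril assembly and marks activated fibroblasts, and Cilp encodes a matrix protein first found in cartilage that binds TGFβ. Of all pairs among the 10 genes these 2 had the most similar levels over the libraries, with a root mean square difference of 0.12 on the centred log2 scale. Thbs1 and Lox came next at 0.23. Cilp was at 15.2 CPM in young sham, 8.85 CPM in young I/R, 31.2 CPM in aged sham and 18.0 CPM in aged I/R. Postn stood in the same order at 45.6, 33.7, 108 and 61.0 CPM. For both, aged sham was the highest library and young I/R the lowest. In aged ventricle I/R over sham on the log2 scale came to −0.83 (−0.89 to −0.77) for Postn and −0.80 (−0.91 to −0.68) for Cilp, above only 4.69% and 5.18% of all genes. In young ventricle it was −0.44 (−0.55 to −0.32) and −0.78 (−0.99 to −0.57), above 53.8% and 36.6% of all genes, and with gene-wise ratio scaling −0.00 and −0.34. Relative to the rest of the transcriptome the lower level after I/R was thus seen for Postn in aged ventricle only, a difference between the ages of −0.39 (−0.52 to −0.26), or −0.92 with gene-wise ratio scaling. For Cilp the difference was −0.02 (−0.25 to 0.22), or −0.54 with that scaling.

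The 12 fibroblast markers had summed levels of 1308 CPM in young sham, 1053 CPM in young I/R, 1769 CPM in aged sham and 1413 CPM in aged I/R. Of these 12, 7 were higher in aged than in young sham, and 1 and 5 were higher after I/R in young and aged ventricle. I/R over sham gave a log2 ratio of −0.31 for the sum in young and −0.32 in aged ventricle. With gene-wise ratio scaling these were 0.12 and −0.42. The sum had the order of Postn and Cilp through Gsn, the gelsolin gene, which alone was at 568, 505, 864 and 451 CPM. Without Gsn the other 11 markers summed to 740, 549, 905 and 962 CPM, with aged I/R above aged sham. The 5 markers higher in aged I/R than in aged sham were Col1a1, Col3a1, Pdgfra, Lamc1 and C3, and the rest of the list was lower. Lamc1 went from 43.4 to 105 CPM, C3 from 165 to 201 CPM and Pdgfra from 32.0 to 49.5 CPM. Mgp went from 285 to 246 CPM and Dpt from 41.9 to 29.9 CPM. Set against 1000 UMIs of fibroblast markers, Postn gave 34.9, 32.0, 61.2 and 43.2 UMIs in the 4 libraries. Cilp gave 11.6, 8.40, 17.6 and 12.7. On this footing aged over young sham gave 0.81 for Postn and 0.60 for Cilp on the log2 scale, in place of 1.25 and 1.04. Leaving Gsn out gave 0.96 and 0.75. For I/R over sham in aged ventricle the full list gave −0.50 for Postn and −0.47 for Cilp, and the list without Gsn −0.92 and −0.88. The size of this fall thus depends on whether Gsn is counted. The part of fibroblast number in the levels of Postn and Cilp was not tested. For Spp1 the I/R ratios were 5.81 in young and 3.44 in aged ventricle on the same footing. A list of 7 markers of activated fibroblasts summed to 155, 126, 167 and 134 CPM in the same order of libraries. For this sum I/R over sham was −0.30 in young and −0.32 in aged ventricle on the log2 scale, and 0.13 and −0.41 with gene-wise ratio scaling.

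Since Postn and Cilp moved together, 1 promoter window of each is shown, with 1 of Spp1 for comparison. RefSeq sequences on GRCm38.p6 were held for 5 of the 10 genes (Postn, Sparc, Tnc, Spp1 and Cilp), and each line gives the 250 bases before the start of transcription, 5′ to 3′ on the strand of the gene.
Postn, chr3:54360857-54361106, plus strand: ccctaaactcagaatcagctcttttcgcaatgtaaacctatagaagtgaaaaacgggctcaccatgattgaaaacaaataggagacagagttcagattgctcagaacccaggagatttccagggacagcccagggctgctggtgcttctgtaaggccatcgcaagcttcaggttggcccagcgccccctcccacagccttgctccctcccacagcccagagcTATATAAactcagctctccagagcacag
Cilp, chr9:65264930-65265179, plus strand: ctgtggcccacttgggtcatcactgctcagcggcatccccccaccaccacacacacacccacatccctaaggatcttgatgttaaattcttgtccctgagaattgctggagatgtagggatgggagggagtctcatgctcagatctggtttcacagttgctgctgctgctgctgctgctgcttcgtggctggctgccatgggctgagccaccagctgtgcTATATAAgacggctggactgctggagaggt
Spp1, chr5:104434861-104435110, plus strand: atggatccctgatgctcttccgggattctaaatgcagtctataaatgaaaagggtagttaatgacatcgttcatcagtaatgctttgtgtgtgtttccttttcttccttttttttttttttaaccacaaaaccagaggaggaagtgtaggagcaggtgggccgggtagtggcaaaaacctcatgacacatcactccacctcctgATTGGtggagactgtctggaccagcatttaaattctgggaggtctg
Capitals mark matches to the TATA box letters TATATAA in Postn, 28 bases before the start, and in Cilp, 30 bases before it, and a CCAAT box read on the other strand in Spp1, 46 bases before it. The gene bodies begin just beyond, with Postn at chr3:54361109-54391037, Cilp at chr9:65265180-65280605 and Spp1 at chr5:104435118-104441050. Both strands of 8 windows, which cover every start site listed for the 5 genes, were searched for the TATA box letters, for the AP-1 letters TGANTCA, for the MCAT element, written GGAATG, and for CCAAT. The TATA box letters occurred in 3 windows, those of Postn and Cilp above and 1 of the start sites of Tnc, 29 bases before it. The AP-1 letters and the MCAT element were found in none, and the CCAAT box in the Spp1 window above alone. Postn, Tnc and Spp1 have 2 start sites listed each. The Postn window not shown, at chr3:54359017-54359266, held no TATA box letters, and the Spp1 window not shown held no CCAAT box. Of 32817 promoter windows of the same length 3.04% held the TATA box letters, 6.75% the AP-1 letters, 12.6% the MCAT element and 33.8% the CCAAT box. The TATA box letters were chosen after the sequences had been read, and a match describes these windows without showing that a factor binds there.

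The wider matrix is described by 5 lists of 95 genes, chosen by function. These lists and the 10 genes were chosen with earlier results of these data known, so setting their medians side by side is a description only. In these lists the median log2 ratio of I/R over sham in young ventricle was −0.20 for matricellular proteins, −0.37 for elastic fibre proteins, −0.39 for cross-linking and collagen processing enzymes, −0.30 for proteoglycans and hyaluronan genes and −0.12 for matricellular receptors, beside 1.68 for the 10 genes and −0.51 for all genes. In aged ventricle the 5 medians lay between −0.41 and 0.03, beside 0.70 for the 10 genes and 0.09 for all genes. Between the sham libraries the medians were 0.44 for matricellular proteins, 0.26 for elastic fibre proteins, −0.02 for the enzymes, 0.48 for proteoglycans and 0.22 for receptors, beside 1.08 for the 10 genes, against −0.14 for all genes.

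**Figure D3:**
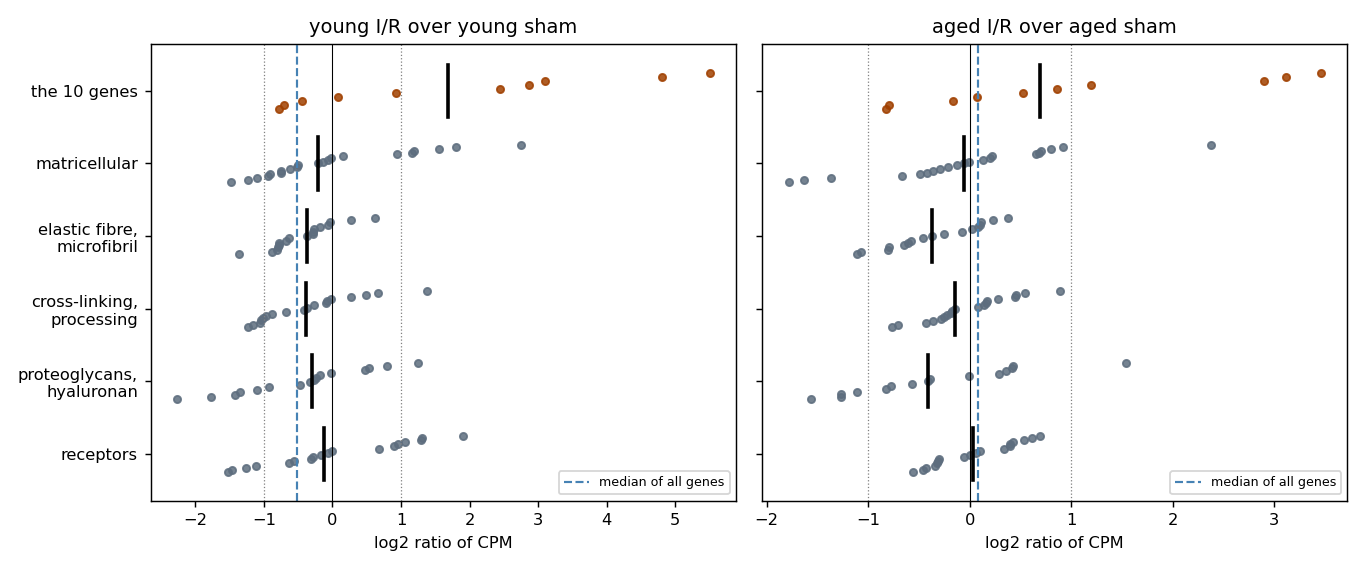
Log2 ratio of CPM of I/R over sham for each gene of the 10 and of 5 other matrix lists, in young and aged ventricle, for genes with at least 20 UMIs over the 2 libraries. Points are genes, thick bars are list medians, the dashed line is the median of all genes and dotted lines mark 2-fold; the median of the 10 genes is 1.68 in young and 0.70 in aged ventricle, and those of the other lists stay between −0.41 and 0.03.

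Within the matricellular list 5 of 21 genes with enough UMIs were 2-fold higher and 3 were 2-fold lower after I/R in young ventricle, where 3.26% of all genes were higher and 27.0% lower. With gene-wise ratio scaling the list counts were 6 and 1. The share of all genes past 2-fold under that scaling is not given, so list counts under it stand without a background, here and below. Ccn2, or connective tissue growth factor, had the largest ratio of them and lay at 20.8 CPM in young sham, 140 CPM in young I/R, 60.0 CPM in aged sham and 113 CPM in aged I/R, the pattern of Thbs1. Spock2, a proteoglycan of the osteonectin family, stood at 3.41, 11.8, 5.68 and 29.6 CPM, and was the 1 gene of the list 2-fold higher in aged I/R. Tnxb, a tenascin of loose connective tissue, was at 132 CPM in young sham but 47.3 CPM in young I/R, which is −1.48 on the log2 scale (−1.56 to −1.40). In aged I/R 1 of 21 genes was 2-fold higher and 3 were 2-fold lower, against 5.65% and 3.02% of all genes. Among the lower ones Comp, a thrombospondin of cartilage and fibrous matrix, went from 34.9 to 10.1 CPM. Comp was also 2-fold higher in aged than in young sham, with a log2 ratio of 3.14 (2.85 to 3.45), and thus had the sham-high and I/R-low order of Postn and Cilp in aged ventricle.

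None of 17 elastic fibre genes was 2-fold higher after I/R at either age, against 3.26% of all genes in young and 5.65% in aged ventricle. In young ventricle 1 was 2-fold lower, against 27.0% of all genes, and in aged ventricle 2, against 3.02%. With gene-wise ratio scaling 1 was higher and 0 lower in young ventricle, and 0 and 2 in aged ventricle. Ltbp4, which holds latent TGFβ in microfibrils, was at 167 CPM in aged sham and 79.8 CPM in aged I/R. Among the enzymes, 1 of 18 was 2-fold higher and 5 were lower in young I/R, the latter near the 27.0% of all genes, and with gene-wise ratio scaling 2 were higher and 0 lower. None of 19 passed 2-fold in aged I/R, where 5.65% of all genes were higher and 3.02% lower. The enzyme gene 2-fold higher in young I/R was the transglutaminase gene Tgm2, at 57.9 and 151 CPM in young sham and young I/R. Of the other lysyl oxidases, none passed 2-fold after I/R at either age, and Loxl1 was at 27.7, 33.3, 33.6 and 19.8 CPM. In the proteoglycan list 1 of 16 genes was higher and 5 lower in young I/R, again near the share of all genes, and 2 were higher and 2 lower with gene-wise ratio scaling. In aged I/R 1 of 15 was higher and 4 lower, against 5.65% and 3.02% of all genes. Prelp, which anchors fibrils to basement membranes, was lower after I/R at both ages, with log2 ratios of −1.34 and −1.27.

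Of 18 receptors of these proteins, 4 were 2-fold higher after I/R in young ventricle, where 3.26% of all genes were, and 4 were 2-fold lower, where 27.0% were. With gene-wise ratio scaling, for which no share of all genes is given, 7 were higher and 2 lower. None passed 2-fold in aged ventricle, where 5.65% of all genes were higher and 3.02% lower. Cd44, a receptor of osteopontin and hyaluronan, was at 9.10 CPM in young sham, 34.0 CPM in young I/R, 13.6 CPM in aged sham and 17.9 CPM in aged I/R. Itga5, the α chain of the fibronectin receptor, was at 32.2, 79.6, 31.7 and 42.7 CPM. For both, young I/R alone stood high. Itga4, the α chain of an integrin of leukocytes that also binds osteopontin and fibronectin, was lower in young I/R, with a log2 ratio of −1.52 (−1.84 to −1.21).

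Barcodes with UMIs of 2 or more different markers of a cell type were compared with all others of the same library, to ask which barcodes carried the 10 genes. These sets are cut by a score and are not cell types: of 4325 barcodes with fibroblast markers in young sham 3802 held exactly 2, and 22394 more held 1. From 99.9% of barcodes in young sham to 100% in aged I/R held 2 or more cardiomyocyte markers, so the other sets lie almost wholly within the cardiomyocyte set. Against the few remaining barcodes, the cardiomyocyte set gave 0.227- to 1.01-fold for 5 genes in young sham. It gave 0.889-fold for 1 gene in young I/R and 0.248-fold for 1 in aged sham. A gene gave a value only if the few remaining barcodes held a UMI of it. These values therefore do not show a depletion in the cardiomyocyte set. In the fibroblast, endothelial, macrophage, mural and neutrophil sets, the 10 genes gave 117 values with at least 20 UMIs inside the set, from 0.729- to 1.61-fold, and none reached 2-fold. The interval lay above 1-fold for 14 of these values and below it for 4. The minimum of 20 UMIs drops low values sooner than high ones, so these counts do not show an enrichment. Cilp in fibroblast-marker barcodes was the most regular, at 1.61-fold in young sham, 1.53-fold in young I/R, 1.45-fold in aged sham and 1.23-fold in aged I/R. Postn was 1.22-, 1.37-, 1.28- and 1.02-fold in the same libraries. Barcodes with markers of activated fibroblasts were few, with 168 of them in the aged sham and 284 in the aged I/R library, and gave the highest value for Postn, at 2.07-fold in aged sham (20 UMIs, log2 interval 0.33 to 1.67) and 1.63-fold in aged I/R (28 UMIs, 0.11 to 1.24). These sets held only 89673 and 282637 UMIs. At its library levels of 108 and 61.0 CPM Postn would have stayed below the minimum of 20 UMIs there. Both values thus passed through being high and do not show an enrichment. The other 3 genes with at least 20 UMIs there, in aged I/R, were Sparc at 1.13-fold, Sparcl1 at 1.03-fold and Prg4 at 0.957-fold, with intervals that held 1-fold. In barcodes with erythroid markers Lox was at 1.68-fold in aged sham (36 UMIs, log2 interval 0.19 to 1.28) and 1.11-fold in aged I/R (−0.25 to 0.53). Spp1 in macrophage-marker barcodes of aged I/R was 1.07-fold (log2 interval −0.24 to 0.43). When each marker was left out of its own score, fibroblast markers had medians of 1.42-, 1.16-, 1.21- and 1.14-fold. Mural markers had medians of 1.78-, 1.13-, 1.29- and 1.15-fold, for 8, 6, 9 and 9 of 9 genes. Endothelial markers had medians of 1.24-, 1.08-, 1.03- and 1.03-fold. Macrophage markers had a median of 1.48-fold in aged sham, for 9 of 14. In aged I/R 14 of 14 macrophage markers had at least 20 UMIs inside their set, with a median of 1.42-fold. In young sham only 5 of 14 had that many, with a median of 3.08-fold, and these passed through being high there. The same minimum favours high values wherever a list is incomplete, as for mural markers in both young libraries and macrophage markers in aged sham. With markers this weakly joined, these values do not assign the 10 genes to cell types.

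**Figure D4:**
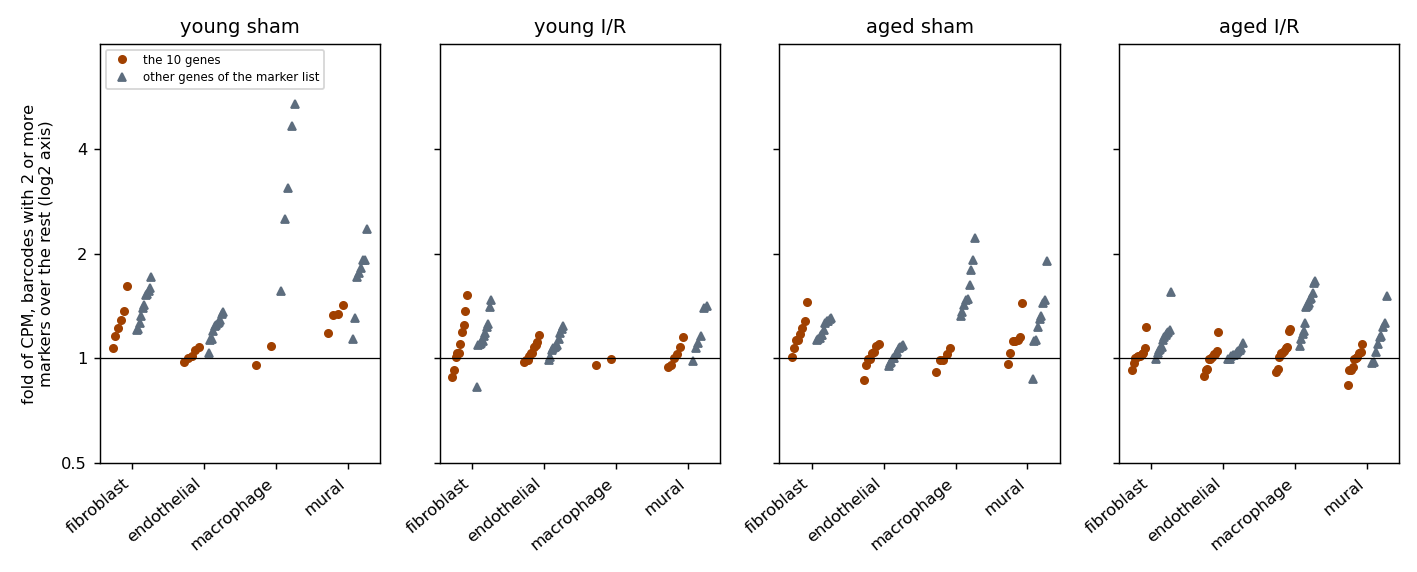
CPM of a gene in barcodes with 2 or more markers of a cell type over its CPM in all other barcodes, on a log2 axis, in each of the 4 libraries. Circles are the 10 genes and triangles are the genes of the marker list, each left out of its own score. Only genes with at least 20 UMIs inside the set are drawn. The fibroblast, endothelial, macrophage and mural sets are shown and the other sets are not. The circles shown lie between 0.839- and 1.61-fold. The 5 macrophage markers of young sham passed this minimum through being high, and lie between 1.56- and 5.38-fold with a median of 3.08-fold.

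Within the fibroblast-marker barcodes Postn was at 55.1, 45.2, 133 and 61.8 CPM. I/R over sham in aged ventricle gave −1.11 on the log2 scale (−1.23 to −0.98), while in young ventricle the interval of −0.71 to 0.14 held 0. The set took in 12.8% of barcodes in aged sham but 23.7% in aged I/R. In aged I/R its Postn level was close to the 61.0 CPM of the whole library. The aged ratio therefore compares unlike sets and does not give a change within fibroblasts. When each barcode was thinned to 300 UMIs, which left out 63767, 27620, 24193 and 247 shallower barcodes of the 4 libraries, Postn was at 58.4, 44.9, 145 and 66.4 CPM in the fibroblast-marker barcodes. Prg4, which was not enriched there in aged I/R (0.971-fold), was at 13.8, 108, 14.2 and 134 CPM before thinning. UMIs of the 10 genes were spread thinly: a barcode with any UMI of a gene held on average 1 to 1.08 of them, and the highest count in a barcode was 10, for Postn in aged I/R.

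Sharing of barcodes among the 10 genes was mostly close to what their overall levels give. Of 161 values, with at least 20 UMIs each, for a gene in barcodes that held another of the 10, the median was 1.05-fold, and 21 intervals lay above and 1 below 1-fold. The minimum of 20 UMIs drops low values sooner than high ones, and a pair can count in both directions. The counts of intervals thus do not show a tendency to share barcodes. The highest value was Postn in Cilp barcodes of aged sham, at 2.02-fold (129 UMIs in 1260 barcodes, log2 interval 0.75 to 1.27). The same pair gave 1.67-fold in aged I/R, with a log2 interval of 0.44 to 1.03. Postn and Cilp thus went together both across the libraries and within barcodes of each aged library, while Spp1 and Thbs1 in aged I/R reached 1.57-fold (log2 interval 0.10 to 1.16) on 32 UMIs. Thbs1 and Lox, the next pair across the libraries, fell below 20 UMIs and are not among these values. Lox in Thbs1 barcodes was at 2.45-fold in young I/R (17 UMIs, 0.50 to 1.99) and 1.74-fold in aged I/R (15 UMIs, −0.05 to 1.54). It had 0 UMIs there in young sham and 1 in aged sham.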

How the data were processed

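The authors prepared 10x Chromium libraries, and the deposited matrices are whole UMI counts per gene and barcode from Cell Ranger 6.0.2 on mm10, with tool and build as per the submitters' processing notes and the paper. No value was scaled before deposit, and every deposited barcode was used. Counts were summed per library with Python 3.11.15, numpy 2.4.6, scipy 1.17.1 and pandas 2.3.3 and divided by total UMIs. At these library totals 1 UMI is worth 0.0150 to 0.0387 CPM, and 3 UMIs were taken as the floor. Groups came from the sample labels. A call is a 2-fold ratio among genes with at least 20 UMIs over the 2 libraries. Intervals cover counting error only, and scripts were tested on simulated data. The authors' clusters were not used, no doublet caller was run since no cell types were formed, and barcodes may hold more than 1 cell.

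All 10 genes were named, and of the 5 matrix lists up to 4 genes per list and comparison with the largest log2 ratio could be named. Loxl1 in young ventricle and Cd44 and Itga5 in aged ventricle are printed for completeness of their 4 levels. The members, lists and markers were chosen with earlier results of these data known. Added after seeing the data were the setting that leaves each marker out of its own score and the sums without Gsn. The choice of fibroblast markers printed singly was also made then. Gene positions are from GENCODE annotation of GRCm38. Alternatives were gene-wise ratio scaling over 11881 genes, a total without Gm42418, Malat1 and mitochondrial genes, other barcode sets, a 1.5-fold call, other UMI minimums and 1 or 3 markers per barcode. The position and sequence of Lox are not reported here.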

Additional observations from a re-analysis of the deposited data

Results flagged for a closer look

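For 2 genes the I/R ratio pointed in opposite directions in young and aged ventricle, which is why they are listed, and with 1 library per condition the difference was not tested against variation between mice. Sparc had log2 ratios of 0.08 in young and −0.16 in aged ventricle, a difference of −0.25 (Wald interval −0.31 to −0.18), and the opposite signs remained with gene-wise ratio scaling at 0.52 and −0.26. Sparcl1 had log2 ratios of −0.71 in young and 0.08 in aged ventricle, a difference of 0.78 (0.70 to 0.86), but with gene-wise ratio scaling both were below 0, at −0.27 and −0.02, and the difference was 0.26 (0.17 to 0.34).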

How the results depend on the processing

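Of 40 log2 ratios of the 10 genes, 1 changed sign under any alternative: Sparcl1 in aged I/R over aged sham went from 0.08 to −0.02 with gene-wise ratio scaling and to −0.01 without Gm42418, Malat1 and mitochondrial genes. The largest shifts were 0.43 with gene-wise ratio scaling, 0.16 without these abundant genes, 0.44 in barcodes with at least 200 genes, 0.13 without shared barcodes and 0.42 in barcodes with 300 to 800 UMIs. A value left its interval for 26 of 40, 17 of 40, 12 of 38, 0 of 40 and 11 of 38 ratios. Genes past 2-fold numbered 5, 4, 6 and 2 in the 4 comparisons. At 1.5-fold they numbered 8 in young I/R over sham (6 higher, 2 lower), 7 in aged I/R over sham (5 higher, 2 lower) and 7 in aged over young I/R (Thbs1 and Lox lower, the rest higher). The share of all genes past 1.5-fold is not given here, so the 1.5-fold counts stand without a background. In aged over young I/R the 2-fold count was 1 with gene-wise ratio scaling (Lox, lower), 0 without the abundant genes and 1 in barcodes with at least 200 genes. These counts have no background either. The differences of Fn1 and Prg4 between the ages changed from 0.27 to −0.26 and from 0.36 to −0.17 with gene-wise ratio scaling, and Prg4 to −0.09 in barcodes with at least 200 genes. The share of all genes past 2-fold in either direction, 8.67% in aged I/R over sham, was 26.6% with no UMI minimum. Tnc had 0 UMIs in young sham in both smaller barcode sets and gave no ratio there. No paired analysis was possible because each condition has 1 library. Depth limits Spp1 and Tnc in young sham most, at 10 and 11 UMIs.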
